A study of Mus musculus with 12 samples.

Results

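Heme and iron handling was followed in mouse liver through 10 genes. They were listed by name for their place in heme synthesis (Alas1, Alas2), heme breakdown (Hmox1, Blvrb), heme scavenging (Hpx), iron storage (Fth1, Ftl1) and iron transport (Tfrc, Slc39a14, Slc40a1). Each was measured by a probe set that carries its symbol alone. They are 10 of the 18820 genes with such a probe set, and all 10 were among the 17052 genes that passed the filter on low values (a mean log2 intensity of at least 5 over all arrays).

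RNA from the liver of female BALB/cByJ mice aged 2.5 months was measured on 12 arrays of the type Affymetrix Mouse Gene 1.1 ST. The 6 groups of 2 arrays were KO mice, which lack Pml, and wt mice, which carry it, each untreated or taken 2 h or 6 h after 300 mg/kg acetaminophen given intraperitoneally in warmed PBS. Acetaminophen at a toxic dose injures hepatocytes through a reactive metabolite, and PML is the scaffold protein of the nuclear bodies named after it. Which part of Pml was deleted, whether untreated mice received PBS, and whether each array stands for a separate animal are points not given in the sources used here. P-values therefore measure the spread between these samples only.

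Heme is made in mitochondria and cytosol from glycine and succinyl-CoA, and the first step, catalysed by an ALAS enzyme, sets the rate. ALAS1 serves all tissues and supplies hepatic cytochromes P450, while ALAS2 is the form of red cell precursors. Heme oxygenase 1 opens the heme ring and frees its iron, which ferritin stores and ferroportin (Slc40a1) exports. HMOX1 is induced by heme and by oxidative and electrophilic stress.

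The promoters of both ALAS genes are shown because their values are set side by side below. Both are the 250 bases before the transcription start in RefSeq, build GRCm38.p6, written 5′ to 3′ on the strand of the gene. The table gives 1 start for Alas2 and 2 for Alas1, of which the one farthest 5′ was used. Alas2 lies on the plus strand (chrX:150547167-150547416) and Alas1 on the minus strand (chr9:106247955-106248204). Capitals mark matches on either strand to AGATAA, the letters bound by GATA factors, or CACCC, those of the CACCC box bound by Krüppel-like factors.
Alas2: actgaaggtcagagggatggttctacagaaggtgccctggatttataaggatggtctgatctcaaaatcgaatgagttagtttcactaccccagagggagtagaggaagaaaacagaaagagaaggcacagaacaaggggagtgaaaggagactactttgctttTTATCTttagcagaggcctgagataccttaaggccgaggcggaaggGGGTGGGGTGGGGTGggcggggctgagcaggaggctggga
Alas1: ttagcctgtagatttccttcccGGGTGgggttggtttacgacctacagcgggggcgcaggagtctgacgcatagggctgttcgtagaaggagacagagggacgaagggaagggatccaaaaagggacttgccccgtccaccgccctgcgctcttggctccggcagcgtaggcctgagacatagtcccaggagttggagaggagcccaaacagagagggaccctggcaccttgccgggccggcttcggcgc
The Alas2 window held AGATAA on its minus strand, beginning 86 bases before the start, and CACCC on the same strand at 40, 35 and 30 bases. The Alas1 window held CACCC once, at 228 bases. AGATAA was found in 9.99% and CACCC in 52.0% of the 32851 promoter windows in the table, counted over the 250 bases before the start. Hmox1, Slc39a14 and Slc40a1 had no entry, so their promoters were not searched. The 7 member genes with an entry had 11 windows of the same length. Counted by gene and not by window, 1 of the 7 held AGATAA and 7 held CACCC in any of their windows. The core of the antioxidant response element, TGACNNNGC on either strand, was in 10.2% of all windows and in 1 of these 7, Hpx. These are matches of letters, not measured binding.

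The label of 1 array and the place of another need stating before the results. Pml stood at a log2 intensity of 7.09 to 7.97 in the KO arrays and 7.82 to 8.46 in the wt arrays, and the mean KO minus wt difference was -0.70 ± 0.14 (limma, adjusted p = 0.035; ± is the standard error of the fit throughout). The array labelled untreated KO replicate 2, at 7.97, lay inside the wt range. KO 6 h replicate 2 stood apart on the first principal component of all tested genes, at 19.8, while the other 6 h arrays lay between 39.7 and 44.8. The 5 tested hepatocyte markers had a summed intensity of 37326 to 42945 in every array, and the array median was 79.9 to 90.1. The lowest group mean of such a marker was a log2 intensity of 12.47, and whether values this high follow RNA amounts was not tested. The main results on the KO groups are given below also without these arrays.

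Hmox1, which encodes heme oxygenase 1, changed more than any other member. KO arrays of Hmox1 read a log2 intensity of 8.34 and 8.19 untreated, 12.25 and 11.92 by 2 h and 11.90 and 10.97 by 6 h. Of Hmox1, the wt arrays read 8.25 and 8.38 untreated, 9.99 and 9.93 by 2 h and 12.21 and 12.01 by 6 h. All treated arrays of a genotype lay above its untreated arrays, and at 2 h both KO arrays lay above both wt arrays by more than the spread of either pair.

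At 2 h Hmox1 had risen 14.1-fold in KO liver, by 3.82 ± 0.24 on the log2 scale (limma, adjusted p = 2.02e-05). In wt liver it had risen 3.13-fold, by 1.64 ± 0.24 (adjusted p = 0.00201). The direct contrast of KO with wt liver at 2 h was 2.13 ± 0.24 (adjusted p = 0.00499), or 4.37-fold, and the untreated livers differed by -0.05 ± 0.24. That 2 h call ended, with a value of 1.96 to 2.16, when wt 2 h replicate 1, wt 2 h replicate 2 or KO 2 h replicate 1 was left out (adjusted p = 0.0542, 0.0677 and 0.0581). The difference between the responses themselves was 2.18 ± 0.34 (adjusted p = 0.0715) and missed the threshold. It passed in a fit of the 4 groups compared alone (adjusted p = 0.00551) and without either KO 6 h array. Without untreated KO replicate 2 the difference between the responses was 2.11 and did not pass.

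By 6 h Hmox1 was high in both genotypes. It was up by 3.17 ± 0.24 in KO liver (adjusted p = 1.64e-05) and by 3.80 ± 0.24 in wt liver (adjusted p = 5.97e-06), 13.9-fold. In KO liver the 6 h arrays differed from the 2 h arrays by -0.65 ± 0.24 (adjusted p = 0.0642), a value that KO 6 h replicate 1 and 2 split: without replicate 1 it was -1.12 (adjusted p = 0.0019), and without replicate 2 it was -0.18 (adjusted p = 0.453). In wt liver Hmox1 rose further between 2 h and 6 h, by 2.15 ± 0.24 (adjusted p = 0.000354). KO against wt liver at 6 h gave -0.68 ± 0.24 (adjusted p = 0.101), -1.14 (adjusted p = 0.00498) without KO 6 h replicate 1 and -0.21 (adjusted p = 0.531) without KO 6 h replicate 2. As the mean of the 3 conditions the difference was 0.47 ± 0.14 (adjusted p = 0.108), and without KO 6 h replicate 2 it was called, at 0.62 (adjusted p = 0.0151).

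**Figure D1:**
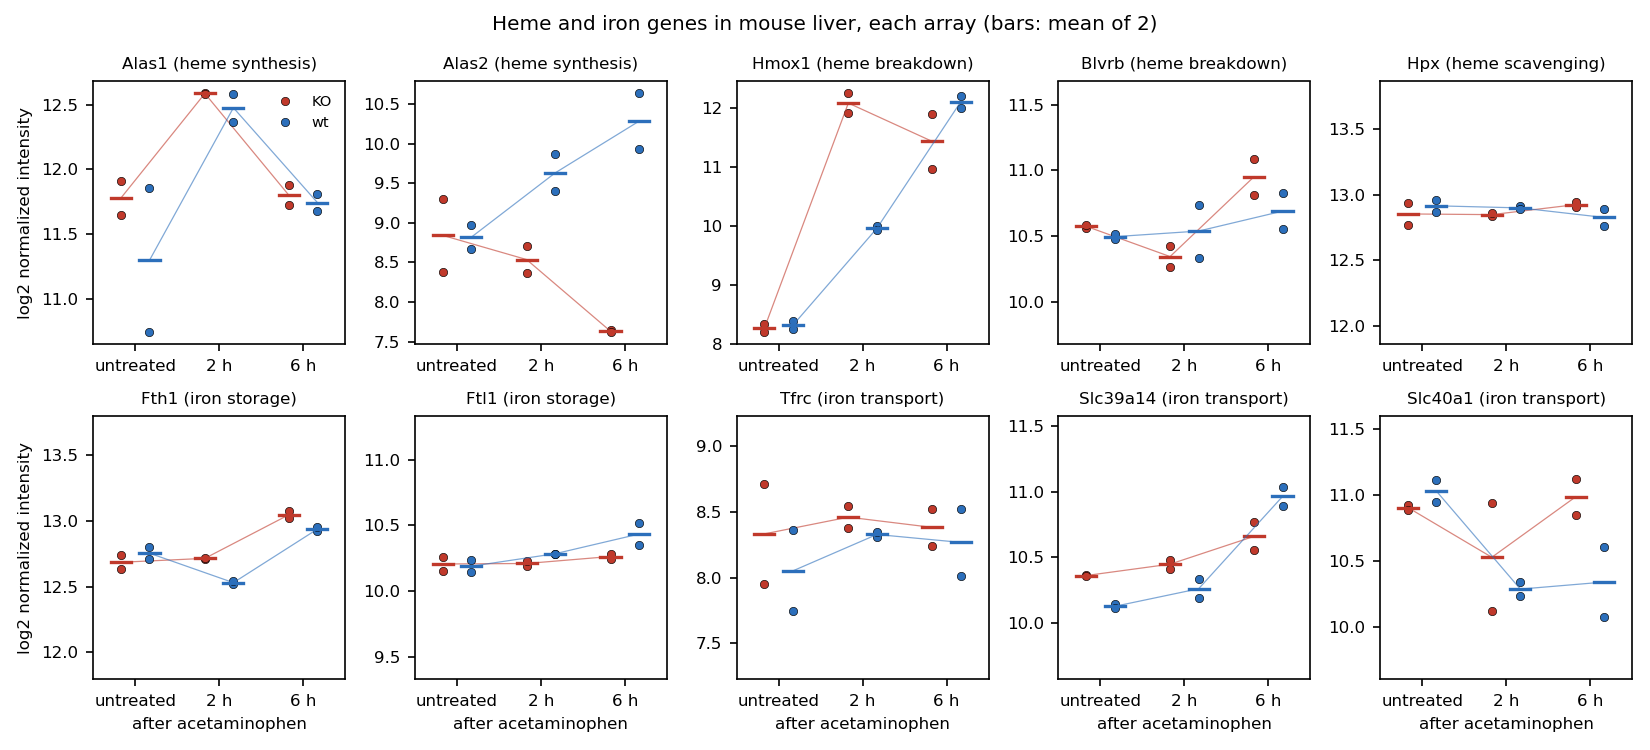
Log2 normalized intensity of the 10 members in each array, in KO and wt liver, untreated and 2 h and 6 h after acetaminophen; points are arrays, lines join group means and each panel has its own axis. Hmox1 shows KO arrays of 12.25 and 11.92 at 2 h above wt arrays of 9.99 and 9.93, and Alas2 shows KO arrays of 7.64 and 7.62 at 6 h below wt arrays of 10.63 and 9.93.

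The wider breakdown list is short. Of its 5 genes, 3 were tested: Hmox1, Blvra and Blvrb. Biliverdin reductase A (Blvra), which turns the biliverdin from HMOX1 into bilirubin, fell by 0.82 ± 0.11 in KO liver at 2 h (adjusted p = 0.000769) and lay at 6.10 and 6.34 there, against 7.11 and 6.98 untreated. In KO liver at 6 h it stood at -0.43 ± 0.11 (adjusted p = 0.0133), a call lost when untreated KO replicate 1 was left out, and also without KO 6 h replicate 2. In wt liver at 6 h Blvra stood at -0.31 ± 0.11 (adjusted p = 0.0469), a call made in 2 of the 12 settings that leave out an array.

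Blvrb, which encodes biliverdin reductase B and reduces biliverdin IXβ as well as flavins, was tested as a member. KO arrays of Blvrb read a log2 intensity of 10.56 and 10.59 untreated, 10.27 and 10.42 by 2 h and 10.82 and 11.09 by 6 h. The wt arrays of Blvrb read 10.48 and 10.52 untreated, 10.34 and 10.74 by 2 h and 10.83 and 10.55 by 6 h. No treated group passed the test against untreated liver, and the KO 6 h arrays lay above the KO 2 h arrays by 0.61 ± 0.15 (adjusted p = 0.0132). Without KO 6 h replicate 2 that difference was 0.47 (adjusted p = 0.0936), and without KO 2 h replicate 1 it was 0.53 (adjusted p = 0.0692).

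Alas2, the erythroid ALAS, moved in opposite directions in the genotypes. KO arrays of Alas2 read a log2 intensity of 9.30 and 8.38 untreated, 8.37 and 8.70 by 2 h and 7.64 and 7.62 by 6 h. Of Alas2, the wt arrays read 8.66 and 8.97 untreated, 9.40 and 9.86 by 2 h and 10.63 and 9.93 by 6 h. The KO 6 h arrays were the lowest and the wt 6 h arrays the highest of all, while the untreated arrays of the genotypes overlapped.

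At 6 h Alas2 fell by 1.21 ± 0.30 in KO liver (limma, adjusted p = 0.0113), 2.32-fold. It rose by 1.47 ± 0.30 in wt liver (adjusted p = 0.00359), 2.76-fold. KO liver was 6.30-fold below wt liver at 6 h (-2.66 ± 0.30, adjusted p = 0.0017), and averaged over the 3 conditions it differed by -1.24 ± 0.18 (adjusted p = 0.0105). Both differences were called in every setting tried, with the 6 h value at -2.64 (adjusted p = 0.0194) without KO 6 h replicate 2. At 2 h KO against wt was -1.10 ± 0.30 (adjusted p = 0.0793), and untreated it was 0.02 ± 0.30.

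The test of the difference in response bears on Alas2 directly: at 6 h the wt response subtracted from the KO response gave -2.68 ± 0.43 (adjusted p = 0.0279). That call ended when the model held the compared groups alone (adjusted p = 0.0626). It also ended without untreated wt replicate 1 or 2, untreated KO replicate 1, wt 6 h replicate 1 or KO 6 h replicate 2 (adjusted p = 0.125, 0.0735, 0.0699, 0.0971 and 0.0837), with values of -2.22 to -2.83. The KO fall at 6 h was -0.75 (adjusted p = 0.0922) without untreated KO replicate 1, whose value of 9.30 was the highest of the KO arrays, and -1.67 (adjusted p = 0.00397) without untreated KO replicate 2. Without KO 6 h replicate 1 it was -1.23 (adjusted p = 0.0505).

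**Figure D2:**
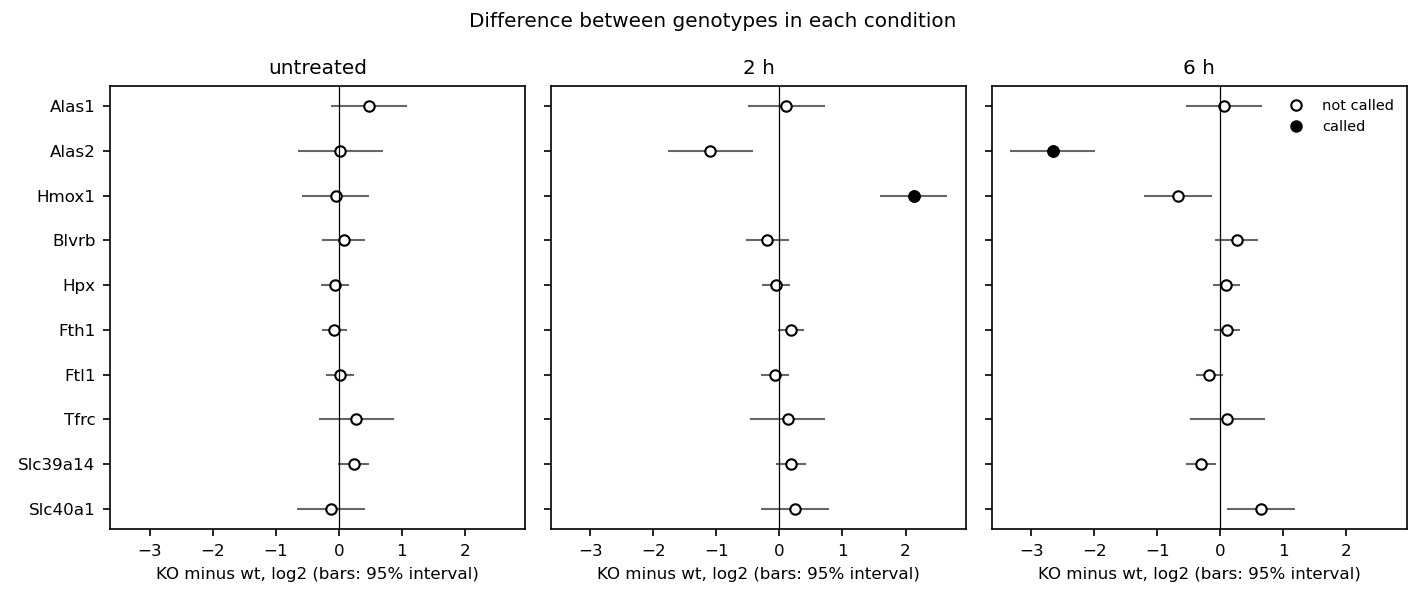
KO minus wt log2 difference of the 10 members in untreated liver and at 2 h and 6 h after acetaminophen, with 95% intervals of the limma fit on the x axis. Alas2 at 6 h (-2.66) and Hmox1 at 2 h (2.13) are the called differences, and none was called in untreated liver.

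Because ALAS2 is erythroid, the markers of red cell precursors are given beside it. Of 15 listed, 8 were tested and none was at 0. At 6 h KO against wt called 0 of the 8 higher and 1 lower, where 4.09% of all tested genes were called higher and 4.93% lower. That gene was Slc4a1, the red cell anion exchanger, at -1.24 ± 0.28 (adjusted p = 0.0247). It lay at 6.12 and 6.11 in KO liver and at 7.82 and 6.89 in wt liver.

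Slc4a1 had also risen in wt liver, by 1.20 ± 0.28 at 2 h (adjusted p = 0.0179) and by 1.09 ± 0.28 at 6 h (adjusted p = 0.0102), as Alas2 had at 6 h. The 2 h call ended without untreated wt replicate 1 or either wt 2 h array, and the 6 h call when either untreated wt replicate 1 or wt 6 h replicate 1 was left out. Its KO against wt call at 6 h ended without wt 6 h replicate 1, KO 6 h replicate 1 or KO 6 h replicate 2. Klf1, an erythroid transcription factor, fell in both genotypes at 6 h, by 0.64 ± 0.12 in KO liver (adjusted p = 0.00284) and by 0.42 ± 0.12 in wt liver (adjusted p = 0.0213). The wt call ended without untreated wt replicate 2 or either wt 6 h array. Of the 8 markers, 0 were called higher and 2 lower in KO liver at 6 h (15.8% and 19.1% of all tested genes). In wt liver at 6 h 1 was higher and 1 lower (16.5% and 22%). Those lower in KO liver were Klf1 and Gata1, whose mean there was 4.91, near the filter value of 5. Gata1 was called lower in KO liver at 2 h too, but not without untreated KO replicate 2.

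The summed intensity of the 8 markers was 395 to 415 in KO and 467 to 588 in wt liver at 6 h. Untreated, it was 450 to 480 in KO and 427 to 484 in wt liver. The median KO minus wt difference of the 8 markers at 6 h was -0.07, against 0.01 over all tested genes, and 7 were not called. In bulk liver, fewer cells of a type and less RNA per cell cannot be told apart, and the part of red cell precursors in the Alas2 values was not tested.

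**Figure D3:**
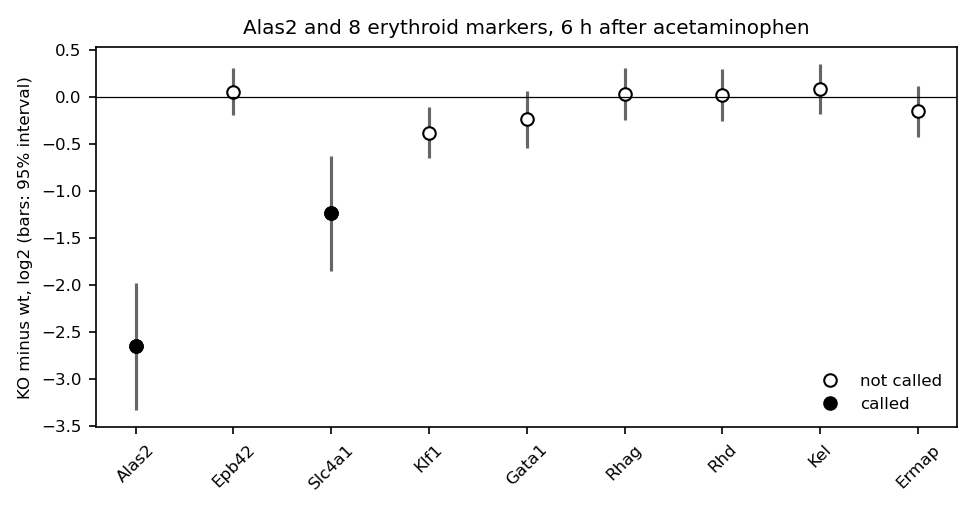
KO minus wt log2 difference at 6 h, in a limma fit, of Alas2 and the 8 tested erythroid marker genes, with 95% intervals on the y axis. Alas2 (-2.66) and Slc4a1 (-1.24) were called and the other markers were not.

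Alas1, the ALAS of hepatocytes, showed the same direction in both genotypes at 2 h. KO arrays of Alas1 read a log2 intensity of 11.65 and 11.91 untreated, 12.59 and 12.59 by 2 h and 11.88 and 11.72 by 6 h. The wt arrays of Alas1 read 11.85 and 10.74 untreated, 12.37 and 12.59 by 2 h and 11.81 and 11.67 by 6 h. All 2 h arrays lay above all others, and untreated wt replicate 2 was the lowest array.

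At 2 h Alas1 was up by 0.81 ± 0.27 in KO liver (adjusted p = 0.0458) and by 1.18 ± 0.27 in wt liver (adjusted p = 0.019). The wt value was 0.62 (adjusted p = 0.0588) without untreated wt replicate 2, and it also missed the threshold without either wt 2 h array or with the compared groups fitted alone. The KO call ended without untreated KO replicate 2 (0.94, adjusted p = 0.0912) and without KO 6 h replicate 2 (adjusted p = 0.056). It was made in 2 of the 12 settings that leave out an array and in 5 of the 8 others. At 6 h the differences from untreated liver were 0.02 ± 0.27 in KO and 0.45 ± 0.27 in wt liver, neither called.

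Several other enzymes of heme synthesis fell in both genotypes. The list holds 9 genes, 8 of them tested. At 6 h 0 were called higher and 5 lower in KO liver, where 15.8% of all tested genes were higher and 19.1% lower. In wt liver at 6 h 1 was higher and 6 lower, where 16.5% were higher and 22% lower. The median over the 8 was -0.78 in KO and -0.61 in wt liver, against -0.05 over all tested genes in both. Both Alas genes are among the 8. Alas2 is 1 of the 5 called lower in KO liver and is the 1 called higher in wt liver.

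Uroporphyrinogen decarboxylase (Urod) fell by 0.82 ± 0.10 in KO liver (adjusted p = 0.000197) and by 0.68 ± 0.10 in wt liver (adjusted p = 0.000482) at 6 h. Protoporphyrinogen oxidase (Ppox) fell by 1.13 ± 0.15 in KO liver (adjusted p = 0.000263) and by 1.22 ± 0.15 in wt liver (adjusted p = 0.000143). Ferrochelatase (Fech), which inserts iron into the ring, fell by 0.87 ± 0.12 in KO liver (adjusted p = 0.000316) and by 0.72 ± 0.12 in wt liver (adjusted p = 0.000832). These 6 calls were made without any single array.

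At 2 h the list had 1 higher and 3 lower in KO liver, where 10.6% of all tested genes were higher and 20.8% lower. In wt liver at 2 h it had 2 higher and 2 lower, where 6.53% were higher and 6.17% lower. The KO count of higher genes was 0 when untreated KO replicate 2 was left out and when KO 6 h replicate 2 was, and both wt counts reached 0 with single arrays left out. Ppox lay at 6.97 and 7.17 in KO liver at 2 h against 8.48 and 8.35 untreated, a fall of 1.34 ± 0.15 (adjusted p = 0.000327). In wt liver it lay at 7.41 and 7.77, against 8.27 and 8.35 untreated, a fall of 0.72 ± 0.15 (adjusted p = 0.01) that was not called when untreated wt replicate 2 was left out, nor without wt 2 h replicate 1. Aminolevulinate dehydratase (Alad), which joins 2 molecules of the ALAS product, fell by 0.73 ± 0.15 in KO liver at 2 h (adjusted p = 0.00463). In wt liver Alad stood at -0.50 at 2 h (adjusted p = 0.0499), a call made in 4 of the 12 settings that leave out an array. It fell by 0.92 ± 0.15 in wt liver at 6 h (adjusted p = 0.000722), a call made in all 12. In KO liver at 6 h Alad was not called against untreated liver. At 6 h Alad was called higher in KO than in wt liver, but not when KO 6 h replicate 2 was left out.

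**Figure D4:**
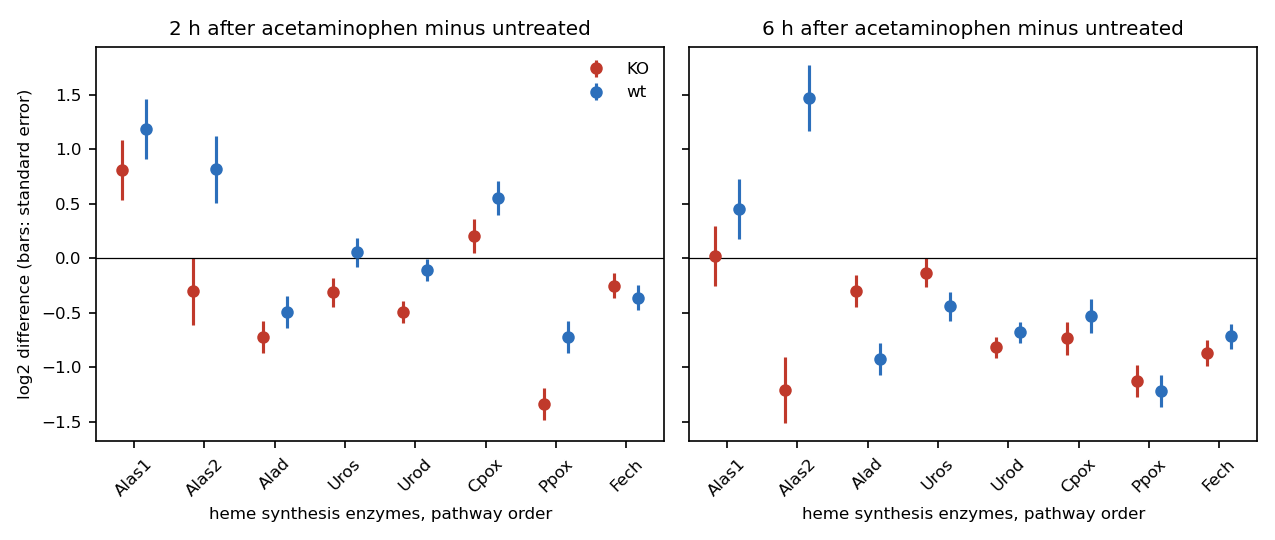
Log2 change from untreated liver of the tested heme synthesis enzymes in pathway order, in KO and wt liver at 2 h and 6 h. Bars are standard errors of the limma fit. Ppox was called lower in all 4 comparisons, and Urod and Fech in both 6 h comparisons.

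Hemopexin (Hpx), the plasma protein that binds free heme and carries it to the liver, varied least. Its 12 arrays lay between 12.76 and 12.96, its group means within 0.098 of each other, and no comparison was called. Its mean of 12.88 stood at percentile 99.9 of the tested genes. Whether intensities this high still follow changes in RNA was not tested, so the small range may be one of the measurement. The interval of its change at 6 h was -0.15 to 0.29 in KO and -0.31 to 0.13 in wt liver. Of the 11 tested genes of heme carriage and scavenging, Hpx among them, 3 were called higher and 6 lower in KO liver at 6 h, where 15.8% of all tested genes were higher and 19.1% lower. In wt liver 3 were higher and 4 lower, where 16.5% of all tested genes were higher and 22% lower.

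Flvcr1, a heme exporter, rose at 6 h by 1.36 ± 0.15 in KO liver (adjusted p = 0.000103) and by 1.11 ± 0.15 in wt liver (adjusted p = 0.000271). It lay at 8.92 and 8.81 in KO liver, against 7.53 and 7.47 untreated, and at 8.32 and 8.69 in wt liver, against 7.55 and 7.23 untreated. Slc48a1, which carries heme out of lysosomes, rose by 1.24 ± 0.16 in KO liver (adjusted p = 0.000236). For Slc48a1 the difference between KO and wt liver at 6 h was not called. Heme-binding protein 1 (Hebp1) fell by 1.47 ± 0.11 in KO liver (adjusted p = 1.29e-05) and by 1.30 ± 0.11 in wt liver (adjusted p = 1.96e-05).

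Ferritin stores iron in a shell of heavy and light chains. KO arrays of Fth1, the heavy chain gene, read 12.74 and 12.63 untreated, 12.71 and 12.72 by 2 h and 13.07 and 13.02 by 6 h. The wt arrays of Fth1 read 12.80 and 12.71 untreated, 12.52 and 12.54 by 2 h and 12.93 and 12.95 by 6 h. The 6 h arrays were the 4 highest.

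Fth1 rose by 0.36 ± 0.09 in KO liver at 6 h (adjusted p = 0.0118), 1.28-fold. In wt liver the change at 6 h was 0.18 ± 0.09 (adjusted p = 0.142). That wt change was called after quantile normalization, with averaged probe sets or with a variance trend (adjusted p = 0.049, 0.0362 and 0.0226). The KO minus wt difference in response at 6 h was not called (0.18 ± 0.13, limma, adjusted p = 0.52). From 2 h to 6 h Fth1 rose by 0.33 ± 0.09 in KO (adjusted p = 0.0196) and by 0.41 ± 0.09 in wt liver (adjusted p = 0.00903). The KO change from 2 h to 6 h was called in 8 of the 12 settings that leave out an array, and the wt change in 11. The KO 6 h call ended without untreated KO replicate 2 (0.31, adjusted p = 0.0887), without KO 6 h replicate 1 (adjusted p = 0.0644) and in the fit of compared groups alone (adjusted p = 0.0553). A second probe set of Fth1, with a mean log2 of 8.81 against 12.78 for the one used, differed at 6 h from untreated liver by 0.60 in KO and 0.43 in wt liver. Ferritin genes have close processed copies in the genome, and a probe set may read these as well, so the values are uncertain in that respect.

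The light chain gene Ftl1 was at 10.14 to 10.52 over the 12 arrays and no comparison was called. Its change at 6 h was 0.06 ± 0.10 in KO (adjusted p = 0.69) and 0.25 ± 0.10 in wt liver (adjusted p = 0.0732). The wt value was called with a variance trend, quantile normalization or a mean log2 of at least 7. In the storage list, Pcbp1, a chaperone that hands iron to ferritin, rose at 6 h by 0.70 ± 0.14 in KO liver (adjusted p = 0.00355) and by 0.66 ± 0.14 in wt liver (adjusted p = 0.00395).

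Slc39a14 encodes ZIP14, which takes up iron that is not bound to transferrin. KO arrays of Slc39a14 read 10.37 and 10.35 untreated, 10.41 and 10.48 by 2 h and 10.55 and 10.77 by 6 h. Of Slc39a14, the wt arrays read 10.14 and 10.11 untreated, 10.33 and 10.19 by 2 h and 11.04 and 10.89 by 6 h. The wt 6 h arrays were the highest, and the untreated wt arrays the lowest.

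In wt liver Slc39a14 rose 1.79-fold at 6 h (0.84 ± 0.11, limma, adjusted p = 0.000234), and this call stood in every setting tried. In KO liver the change was 0.30 ± 0.11 (adjusted p = 0.0555). The difference between the responses was -0.54 ± 0.15 (adjusted p = 0.146), so a difference between genotypes was not shown.

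Slc40a1 encodes ferroportin, the iron exporter. KO arrays of Slc40a1 read a log2 intensity of 10.92 and 10.89 untreated, 10.94 and 10.12 by 2 h and 10.85 and 11.12 by 6 h. The wt arrays of Slc40a1 read 11.12 and 10.95 untreated, 10.23 and 10.34 by 2 h and 10.08 and 10.60 by 6 h. All wt treated arrays lay below both untreated wt arrays, while in KO liver the arrays of the 3 conditions overlapped.

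Slc40a1 fell by 0.69 ± 0.24 in wt liver at 6 h (adjusted p = 0.0447) and its 2 h change was -0.75 ± 0.24 (adjusted p = 0.0714). In KO liver the changes were -0.38 ± 0.24 at 2 h and 0.08 ± 0.24 at 6 h. The KO 2 h arrays split: the change was called without KO 2 h replicate 1 (-0.79, adjusted p = 0.0269) and was 0.03 (adjusted p = 0.929) without replicate 2. The KO minus wt difference in response at 6 h was not called (0.77 ± 0.34, adjusted p = 0.3). The wt 6 h call was lost without either untreated wt array and without wt 6 h replicate 1 (-0.43, adjusted p = 0.279). It was made in 3 of the 12 settings that leave out an array and in 5 of the 8 others. Ferroportin is abundant in Kupffer cells, and of their 11 markers 2 were called higher and 5 lower in KO liver at 6 h (15.8% and 19.1% of all tested genes), and 1 higher and 6 lower in wt liver (16.5% and 22%). With single arrays left out the KO count of lower markers was 1 to 6. Their summed intensity was 5453 to 5912 in KO and 4804 to 5321 in wt liver at 6 h, against 6364 to 7284 in untreated KO and 6352 to 6650 in untreated wt liver. Their part in the Slc40a1 values was not tested.

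The transferrin receptor gene Tfrc lay between 7.74 and 8.71, with 8.71 and 7.95 in untreated KO liver, and no comparison was called. Its change at 6 h was 0.05 ± 0.27 in KO and 0.22 ± 0.27 in wt liver. Of the 9 tested genes of iron uptake, export and plasma carriage, 0 were called higher and 3 lower in KO liver at 6 h (15.8% and 19.1% of all tested genes), and 1 higher and 4 lower in wt liver (16.5% and 22%).

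The ferrireductase Steap3 fell by 1.32 ± 0.17 in KO (adjusted p = 0.000299) and 1.19 ± 0.17 in wt liver (adjusted p = 0.000448) at 6 h. The metal importer Slc39a8 fell by 0.88 ± 0.12 in KO (adjusted p = 0.000368) and 0.84 ± 0.12 in wt liver (adjusted p = 0.000415). The second transferrin receptor gene Tfr2 fell by 0.64 ± 0.09 in KO (adjusted p = 0.000497) and 0.53 ± 0.09 in wt liver (adjusted p = 0.00126).

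Genes of both iron regulatory proteins fell. Aco1 encodes IRP1, which binds iron-responsive elements in ferritin and transferrin receptor messages, and it fell by 0.86 ± 0.13 in KO liver (adjusted p = 0.000781) and 0.75 ± 0.13 in wt liver (adjusted p = 0.00145) at 6 h. Ireb2, which encodes IRP2, lay at 9.06 and 9.19 in KO liver, against 9.69 and 9.77 untreated, and at 8.93 and 8.92 in wt liver, against 9.69 and 9.78 untreated. It fell by 0.61 ± 0.09 in KO (adjusted p = 0.000809) and 0.81 ± 0.09 in wt liver (adjusted p = 0.00013).

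Across the comparisons of treated with untreated liver, members called were read against the share of all tested genes called. At 2 h 2 of 10 members were called in KO liver, where 31.4% of all tested genes were called. In wt liver at 2 h 2 were called, where 12.7% were. At 6 h 3 were called in KO liver, where 34.9% were, and 4 in wt liver, where 38.4% were. A count near such a share is no result about the members. The median change of the 10 members at 6 h was 0.08 in KO and 0.23 in wt liver, against -0.05 over all tested genes in both. The share of called genes that were higher in KO liver at 2 h was 33.9%, and 44.7% after quantile normalization.

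**Figure D5:**
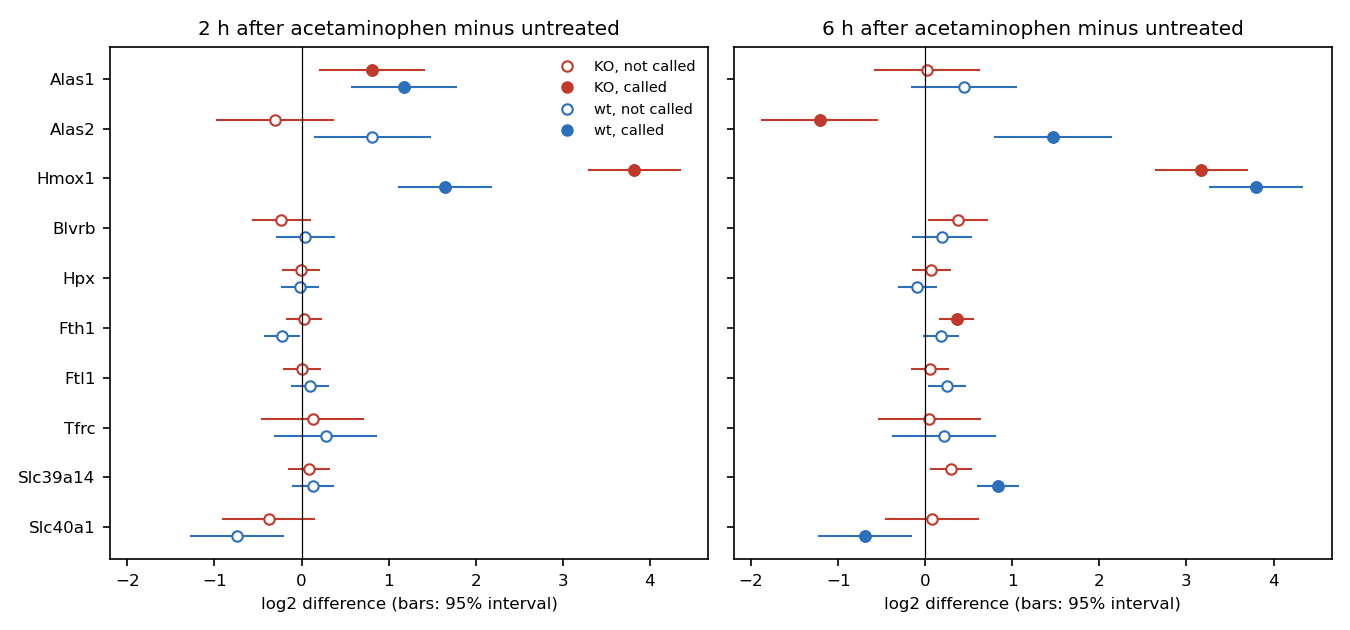
Log2 change from untreated liver of the 10 members in KO and wt liver at 2 h and 6 h after acetaminophen, with 95% intervals of the limma fit. Hmox1 rose in all 4 comparisons, while Alas2 fell in KO liver (-1.21) and rose in wt liver (1.47) at 6 h.

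Between 2 h and 6 h 3 members were called in KO liver (31.7% of all tested genes) and 3 in wt liver (27.7%). In KO liver these were Blvrb and Fth1, higher, and Alas2 (-0.91 ± 0.30, adjusted p = 0.0444). The count in KO liver was 0 without KO 6 h replicate 2. In wt liver they were Hmox1, Fth1 and Slc39a14, which rose by 0.70 ± 0.11 (adjusted p = 0.00155).

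KO against wt liver called 0 members untreated (0.00586% of all tested genes), 1 at 2 h (2.01%), 1 at 6 h (9.02%) and 1 as the mean of the 3 conditions (1.78%). In untreated liver limma called 1 gene in all, Gadd45g, a stress-response gene named after its value was seen, while 660 genes and 0 members had an unadjusted p under 0.05. The difference between the responses called 0 members at 2 h (0.0293%), where 5 genes were called in all, and 2 members and 2606 genes had an unadjusted p under 0.05. Those genes, named after their values were seen, were Cetn4, Col12a1, Arrdc3, Sftpa1 and Id2. At 6 h it called 1 member (0.487%), Alas2. Of all called genes, those higher in KO were 20.5% at 2 h and 18.4% as the mean, against 50.3% and 38.7% after quantile normalization, while for the difference between the 2 h responses they were 40%, against 28.6%.

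Factors that act on Hmox1 rose as well. BACH1 represses Hmox1 until heme releases it, and small MAF proteins pair with BACH1 or with NRF2. Of the 7 tested regulators of Hmox1 and Alas1, 5 were called higher and 0 lower in KO liver at 2 h (10.6% of all tested genes were higher), and 3 higher and 0 lower in wt liver (6.53%). Without untreated KO replicate 2 the KO count was 3. At 6 h 4 were higher and 0 lower in each genotype. Of all tested genes 15.8% were higher at 6 h in KO and 16.5% in wt liver. KO against wt liver at 6 h called 0 of the 7 higher and 3 lower (4.09% and 4.93% of all tested genes). That count of lower genes was smaller without KO 6 h replicate 2.

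KO arrays of Bach1 read 8.03 and 7.97 untreated, 10.12 and 10.16 by 2 h and 9.56 and 8.51 by 6 h. Of Bach1, the wt arrays read 8.04 and 8.20 untreated, 9.58 and 9.57 by 2 h and 10.33 and 10.16 by 6 h. It rose at 2 h by 2.14 ± 0.25 in KO (adjusted p = 0.000457) and by 1.45 ± 0.25 in wt liver (adjusted p = 0.00482), and at 6 h KO against wt liver gave -1.21 ± 0.25 (adjusted p = 0.0201). Without KO 6 h replicate 2 that difference was -0.68 (adjusted p = 0.041), and without wt 6 h replicate 1 it was not called. Maff, a small MAF, rose at 2 h by 5.66 ± 0.63 in KO (adjusted p = 0.000364) and by 4.68 ± 0.63 in wt liver (adjusted p = 0.00126). It lay at 9.51 and 6.88 in KO and at 10.97 and 10.68 in wt liver at 6 h, so the KO arrays were far apart.

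Hepcidin, the liver hormone that degrades ferroportin, is the product of Hamp. Mice carry a closely related copy, Hamp2, whose peptide is not known to control iron, and the probe sets may read each other's transcripts. Both Hamp and Hamp2 were called lower in wt liver at 6 h than in untreated wt liver. Hamp2 was also called lower in KO liver at 6 h than in untreated KO liver. At 6 h Hamp was 12.67 and 12.76 in KO liver, against 11.81 and 11.47 in wt liver. Hamp was higher in KO than in wt liver by 1.08 ± 0.14 (adjusted p = 0.0041), and the difference of Hamp2 was -3.13 ± 0.26 (adjusted p = 0.000289). Of the 9 tested genes of hepcidin and its control, 2 were called higher and 1 lower in this comparison (4.09% and 4.93% of all tested genes). Without KO 6 h replicate 2 there were 1 higher and 1 lower.

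The genes whose log2 values ran most like those of a member over the 12 arrays were listed as a description. These arrays share treatments and genotypes, so a correlation holds the group differences. Closest to Hmox1 were Zfand2a (r = 0.988), Impact (r = 0.985) and Eid3 (r = 0.981). Closest to Alas2 were Vaultrc5 (r = 0.952), Tmem119 (r = 0.942) and Napsa (r = 0.922). For Fth1 they were Ern1, Fip1l1 and Inip (r = 0.954, 0.952 and 0.951), and for Slc39a14 Sptlc2, Pgm2 and Vcl (r = 0.944, 0.941 and 0.936). Among pairs of members the highest r was between Ftl1 and Slc39a14 (0.755), and next Hmox1 and Slc39a14 (0.718).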

How the data were processed

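Liver RNA from 12 samples was measured on Affymetrix Mouse Gene 1.1 ST arrays. Per the submitters' processing notes RMA and Affymetrix Expression Console were used, and versions are not given in the sources used here. Each deposited value is the authors' normalized intensity of a probe set, on a linear scale. Log2 was taken here without a pseudocount. Groups came from the sample titles, and for 1 wt 2 h array with a shortened title from its source name.

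Symbols came from the platform annotation. Of 35556 probe sets, 21218 carried 1 gene symbol, 1881 carried several and 12457 none, and only the first kind was used. The probe set with the highest mean stood for a gene, as 1386 genes had more than 1. Genes with a mean log2 of at least 5 were tested with limma 3.58.1 in R 4.3.3 (lmFit, eBayes) as a model of 6 groups and 12 arrays (6 residual degrees of freedom, 4.33 prior). Two-sided p-values were adjusted by the Benjamini-Hochberg method over all tested genes within each of 12 comparisons, and calls were made at an adjusted p under 0.05. Figures were drawn with Python 3.11.15 and matplotlib 3.10.9. Promoter windows came from a RefSeq table of GRCm38.p6.

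The members and gene lists were chosen with earlier results of these data known. The members are named in every comparison. Of each pathway list, genes are named from the up to 4 called genes with the smallest p in a comparison. Not all of these are named. Of each role the 3 genes most like its widest-ranging member are named. Alternatives were quantile normalization, no filter, a minimum mean log2 of 7, averaged probe sets, log2 of the value plus 16, a variance trend, only the compared groups, the replicate number as a block, and each array left out in turn. List counts without single arrays were added after seeing the data. The fit was tested on simulated data. The number of arrays limits the precision.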

Additional observations from a re-analysis of the deposited data

Results flagged for a closer look

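Several differences between the KO and the wt response at 6 h were past the test of the difference itself (limma, adjusted over all tested genes). Among the members this was Alas2, at -2.68 on the log2 scale. Among the listed genes of hepcidin control it was Hamp at 1.28, Hamp2 at -2.43 and Id1, a target of BMP signalling, at 2.82. Among neutrophil markers it was S100a8 at -2.50, S100a9 at -2.54 and Cxcr2 at -3.22. Without untreated KO replicate 2 Alas2 was called (-3.14, adjusted p = 0.0219) and none of the other 6 genes was (adjusted p = 0.0618 to 0.0947). Without KO 6 h replicate 2 Hamp2 (-2.71, adjusted p = 0.0308) and S100a8 (-2.48, adjusted p = 0.0462) were called, and Alas2 (-2.67, adjusted p = 0.0837), Hamp (adjusted p = 0.0872), Id1 (adjusted p = 0.0991), S100a9 (adjusted p = 0.066) and Cxcr2 (adjusted p = 0.073) were not. Of the 9 tested neutrophil markers, 1 was called higher in KO liver at 6 h (15.8% of all tested genes) and 9 were in wt liver (16.5%).

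A signal outside the gene tests came from 4 probe sets annotated both to Ftl1 and to Mir692-1, which were left out as not carrying 1 symbol. In KO liver at 6 h their median was 0.356 above untreated KO liver, with 0.347 to 0.368 over the 4 and no overlap of the arrays. In wt liver the median was 0.183, also with no overlap of the arrays. The Ftl1 probe set used in the tests had the other order at 6 h, with 0.06 in KO and 0.25 in wt liver.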

How the results depend on the processing

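Of 120 member results, 21 were called. Over 8 alternatives and 12 settings that each left out 1 array, no called value changed sign, 11 of the calls ended in some setting and 17 results became called in some. Members called in KO liver at 2 h numbered 2, and 1 with no filter, 1 after quantile normalization and 1 with the replicate block. The difference between the 2 h responses called 0 members, and 1 in a fit of the compared groups only, and that between the 6 h responses 1, and 0 in that fit. With arrays left out the counts of members called were 1 to 2 in KO and 1 to 3 in wt liver at 2 h, 2 to 3 in KO and 3 to 4 in wt liver at 6 h, 0 to 3 in KO and 2 to 4 in wt liver between 2 h and 6 h, 0 to 0, 0 to 1, 1 to 2 and 1 to 2 for KO against wt untreated, at 2 h, at 6 h and as the mean, and 0 to 1 and 0 to 2 for the response differences at 2 h and 6 h. 

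In a fit of the compared groups all tested genes called were 52 in place of 342 for KO against wt at 2 h, 142 in place of 1538 at 6 h, 3101 in place of 5401 for KO 6 h against 2 h, 23 in place of 5 for the 2 h response difference and 2 in place of 1 untreated. Quantile normalization gave 197 at 2 h and 191 in place of 304 for the mean of conditions, which was 201 at a mean log2 of at least 7. The 2 h response difference was 1 at that filter, 8 with log2 of the value plus 16 and 11 with a variance trend. Untreated, 0 genes were called with no filter, with that pseudocount or with the block. With arrays left out, KO against wt gave 8 to 777 at 2 h, 172 to 1691 at 6 h and 65 to 667 as the mean, and the response differences 2 to 33 at 2 h and 18 to 286 at 6 h. The cause was not tested.

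Replicate numbers are in the titles, and the replicate block gave 550 genes for KO against wt at 2 h. Same-numbered arrays correlated at -0.134 to 0.185 in their deviations over 15 pairs of groups, with 4 over 0.1, so the numbers were not taken to pair arrays. With the block the calls of Alas1 in KO liver at 2 h, Slc40a1 in wt liver at 6 h and Alas2 between KO 6 h and 2 h ended, and Hmox1 between KO 6 h and 2 h was called.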

Other observations

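The mitochondrial side of iron handling was not described above. Of 6 tested genes of mitochondrial iron and iron-sulfur clusters, 0 were called higher and 3 lower in KO liver at 6 h (15.8% and 19.1% of all tested genes), and 1 higher and 3 lower in wt liver (16.5% and 22%). Abcb10, a transporter of the inner membrane needed for heme synthesis in red cells, fell at 6 h by 1.02 ± 0.13 in KO (limma, adjusted p = 0.000236) and by 1.06 ± 0.13 in wt liver (adjusted p = 0.000167). Slc25a37, the mitoferrin of red cell precursors, was 9.39 and 8.57 in KO and 9.69 and 9.59 in wt liver at 6 h. It rose in wt liver by 0.88 ± 0.23 (adjusted p = 0.0111), a call lost when untreated wt replicate 1 was left out, and also without wt 6 h replicate 1.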
